A study of Mus musculus with 8 samples.

Results

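The microRNAs miR-221 and miR-222 were followed in exosomes of mouse amniotic fluid, by all 4 of their mature arms that the array lists: mmu-miR-221-3p, mmu-miR-221-5p, mmu-miR-222-3p and mmu-miR-222-5p (mmu, for mouse, is left off from here on). They were chosen by name among the 1881 mouse miRNAs of the array, and each was read on all 8 arrays by 2 or 3 probes. The first group of 4 samples came from mice in preterm birth after lipopolysaccharide (LPS, a bacterial outer membrane component that triggers inflammation). The mice had received LPS in the peritoneum on day 14 of pregnancy, at 100 μg per kg, and preterm birth followed after about 48 h, when embryos with intact waters were collected. The other 4 samples came from cesarean sections and served as the comparison. For these the labels name no injection and no strain, and they give day 17 of pregnancy for every sample, which does not match preterm birth about 48 h after day 14. LPS, labour and any difference in gestational age therefore cannot be told apart here, and the labels do not say whether a sample is 1 mouse, 1 fetus or a pool.

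MicroRNAs are short RNAs that guide Argonaute proteins to messenger RNAs, which they find mainly through the seed, bases 2 to 8. miR-221 and miR-222 are cut from a pair of neighbouring hairpins on the X chromosome that are transcribed together, and their 3p arms are the ones usually loaded while the 5p arms are mostly degraded. Their best known targets are Cdkn1b, which encodes the cell cycle inhibitor p27, and Kit, the receptor of stem cell factor. The pair is known for driving growth of vascular smooth muscle, for limiting Kit signalling in endothelium and in red cell precursors, and for accumulating in mouse macrophages under prolonged LPS, where miR-222 targets the chromatin remodelling gene Smarca4 (Brg1).

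The precursors and mature arms show what the 3p arms have in common. RefSeq's table (GRCm38.p6) places Mir221 at chrX:19146294-19146388 and Mir222 at chrX:19146893-19146971, both on the minus strand with 504 bases between them, and lists 0 other genes that overlap this stretch, so neither hairpin lies in an exon or intron of a listed gene. It holds 3 of the 4 mature arms. In the hairpins, capitals mark the mature arms of that table.
Mir221: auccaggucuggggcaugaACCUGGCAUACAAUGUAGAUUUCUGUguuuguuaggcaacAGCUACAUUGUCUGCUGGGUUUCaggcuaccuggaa
Mir222: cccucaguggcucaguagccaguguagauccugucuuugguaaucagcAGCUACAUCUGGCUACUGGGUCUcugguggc
In the mature arms, capitals mark the seed.
miR-221-3p: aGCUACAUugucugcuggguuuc
miR-222-3p: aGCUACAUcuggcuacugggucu
miR-221-5p: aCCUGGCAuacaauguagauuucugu
The 3p arms share their first 8 bases, and with them the whole seed, but are identical at only 11 of 23 positions.

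The 3p probes lie mostly outside the shared seed, where the arms of the pair differ. The seed of miR-222-5p could not be marked, as RefSeq's table lacks that mature arm. Both probes of each 3p arm and the longest probe of each 5p arm are shown, with letters opposite a known seed in capitals.
miR-221-3p, longer probe: gaaacccagcagacaATGTA
miR-221-3p, shorter probe: gaaacccagcagacaATGT
miR-222-3p, longer probe: acccagtagccagA
miR-222-3p, shorter probe: acccagtagccag
miR-221-5p, longest probe: acagaaatctacattgtaTGC
miR-222-5p, longest probe: aggatctacactggctac
The probes of miR-221-3p pair with bases 4 to 23 and 5 to 23 of the miRNA, while those of miR-222-3p pair with bases 8 to 21 and 9 to 21 and are only 14 and 13 bases long. The longest run that a 3p probe shares with the target of its partner is 6 bases, and no member's probe finds its whole target in any other of the 1738 mature sequences in the table. Partial runs of a target in other mature sequences reach 9 bases for the short miR-222-3p probes and 10 for those of miR-221-3p. They reach 8 bases for miR-221-5p and 11 for miR-222-5p. Whether such miRNAs bind these probes was not tested. The miR-222-5p probe pairs with the run guagccaguguagauccu of the Mir222 hairpin. The files list the probes on chromosome X of the older build mm9 with the 5p arm at the lower coordinate in each hairpin, the reverse of the order in which RefSeq has the arms of Mir221, so those positions are not printed.

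All 8 arrays lay on 1 slide and were scanned together, LPS above and cesarean below in separate slide rows, so row and group cannot be told apart. The scanner software marks each spot that stands well above background, and a probe was taken as such where a share of 0.5 or more of its spots had the mark. By this rule between 403 and 517 miRNAs were well above background on an LPS array and between 412 and 551 on a cesarean array. The 75th percentile signal, by which arrays were scaled, was 228, 257, 407 and 211 scanner units on LPS replicates 1 to 4, against 448, 349, 214 and 226 on cesarean replicates 1 to 4. The negative control spots averaged between 2.03 and 2.98 units with an SD between 1.99 and 2.38. Of the 120 spots that read the 4 arms, between 111 and 120 per array were free of outlier marks and were kept.

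Only the 3p arms gave signal in these exosomes. The 5 probes of miR-221-5p and miR-222-5p had 0 of 458 spots well above background over the 8 arrays, and their mean signals ran from -2.36 to 1.86 units, below the mean of the negative controls on every array. miR-221-5p lay between -0.762 and 1.86 units and miR-222-5p between -2.36 and 1.35 units over the LPS and cesarean arrays. In the authors' deposited table the 5p arms lay between 2.08 and 2.23 on the log2 scale, next to the column medians of 2.13 to 2.14. No fold change can be given for these arms. By contrast, 220 of 235 spots of miR-221-3p and 137 of 235 spots of miR-222-3p were well above background, and their probe means reached 89.2 and 48.0 units. miR-222-3p was thus a dim member on this array, and its distance from background limits every value given for it.

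**Figure D1:**
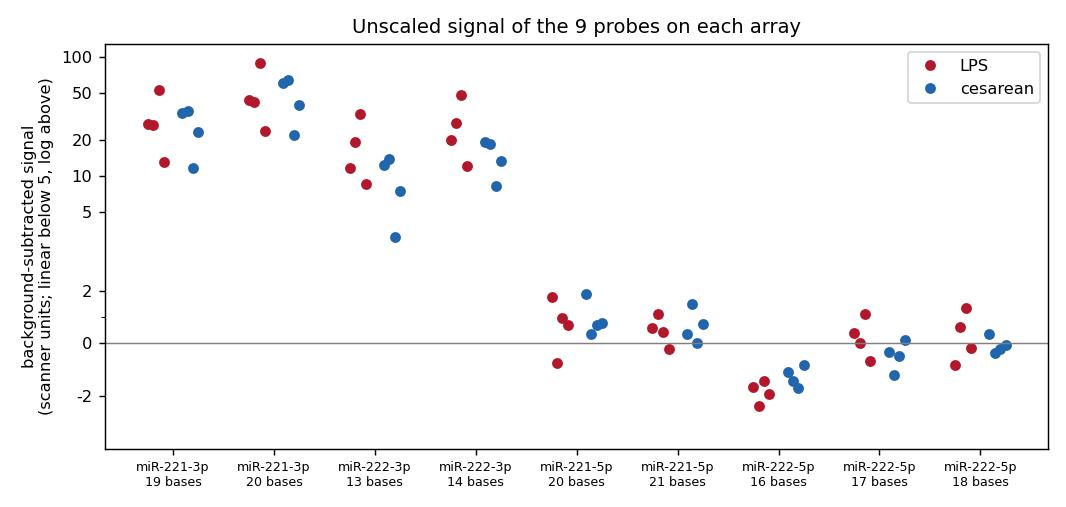
Unscaled, background-subtracted signal (y axis, scanner units, linear below 5 and logarithmic above) of the 9 probes of the 4 arms, with 1 point per array, LPS in red to the left and cesarean in blue to the right. All 5p points lie between -2.36 and 1.86 units, while the 3p probes run from 4.04 to 89.2 units.

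miR-1928, from a hairpin on chromosome 1, is the only other of the 1738 mature sequences with the same bases 2 to 8, shown here beside the pair.
miR-1928: aGCUACAUugccagcuc
Its 2 probes had 0 of 237 spots well above background and mean signals from -2.19 to -0.177 units. Of the miRNAs with this seed, the array thus gave values for miR-221-3p and miR-222-3p only.

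miR-221-3p was well above background on all 8 arrays and did not differ between the groups beyond the spread of their samples. Its brighter, longer probe read 44.0, 42.2, 89.2 and 24.1 units on LPS replicates 1 to 4, against 61.0, 64.0, 22.3 and 39.8 units on cesarean replicates 1 to 4, before scaling. After the arrays were scaled to a common 75th percentile signal, the log2 levels were 5.76, 5.52, 5.94 and 5.0 in LPS samples, against 5.25, 5.68, 4.87 and 5.63 in cesarean samples. LPS replicates 1 and 3 were the highest of the 8, LPS replicate 4 and cesarean replicate 3 the lowest, and the groups overlapped. The mean was 5.55 ± 0.41 with LPS and 5.36 ± 0.38 at cesarean section (SD, n = 4 each). Their log2 difference was 0.20 ± 0.29 (SE; limma adjusted p = 0.721 by Benjamini-Hochberg over the 470 miRNAs tested). The 95% interval of the fold change runs from 0.738 to 1.78, so neither a decrease nor an increase within those bounds is excluded. In a fluid that pools vesicles of many cells, fewer vesicles of a cell type cannot be told apart from less of a miRNA per vesicle.

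miR-222-3p was higher on 3 of the 4 LPS arrays than on every cesarean array, but did not pass the test over all miRNAs. Its longer probe read 20.1, 27.8, 48.0 and 12.1 units on LPS replicates 1 to 4, against 19.5, 18.7, 8.22 and 13.5 units on cesarean replicates 1 to 4. It was well above background on 3 LPS arrays (not on replicate 4) and on 3 cesarean arrays (not on replicate 3). On the scaled log2 scale it lay at 4.62, 4.92, 5.05 and 4.0 in LPS samples, against 3.61, 3.91, 3.43 and 4.07 in cesarean samples. LPS replicates 1 to 3 stood above all cesarean samples, and LPS replicate 4 fell between cesarean replicates 2 and 4. In the test, signals below 13.5 scaled units (3.75 on the log2 scale) were raised to that floor, which applied to cesarean replicates 1 and 3.

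With the floor, miR-222-3p averaged 4.65 ± 0.47 in LPS samples and 3.87 ± 0.15 in cesarean samples (SD, n = 4 each). This is 0.78 ± 0.27 (SE) higher on the log2 scale, or 1.71-fold with a 95% interval from 1.13 to 2.59. The limma p was 0.0155 and the adjusted p 0.104, which ranked it 70 of 470 tested miRNAs by p. The small SD of the cesarean samples rests in part on the floor, and without it that group averaged 3.75 ± 0.29 and the difference was 0.89. Leaving out LPS replicate 4, the lowest LPS array for both 3p arms, gave 0.99 and a limma adjusted p of 0.0352. Removing the lowest array of the higher group raises the difference by construction, so this pass adds no support. In that setting 25 of the 470 miRNAs passed. The difference shrank to 0.12 with a floor 2 times as high, to 0.31 with normexp background correction and to 0.04 with the scanner software's total per miRNA. The higher floor set miR-222-3p to the floor on all cesarean arrays and on LPS replicates 1 and 4. The normexp correction added 50 units to every signal, more than this probe's highest mean of 48.0 units. Both settings shrink any log2 difference of so dim a probe, so they cannot decide whether it holds.

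Of the 2 members tested, 0 passed limma at an adjusted p of 0.05, where 4.89% of the 470 miRNAs passed, 2.55% with a rise and 2.34% with a fall. At an unadjusted p of 0.05, 1 of the 2 passed, miR-222-3p, against 24.9% of all tested miRNAs. The number of all miRNAs called moved with the processing, to 1 without scaling and to 79 without LPS replicate 1, against 23 as reported. The groups overlapped for both members, while they did not overlap for 17.0% of the tested miRNAs. A p above the threshold does not show that the levels were the same.

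**Figure D2:**
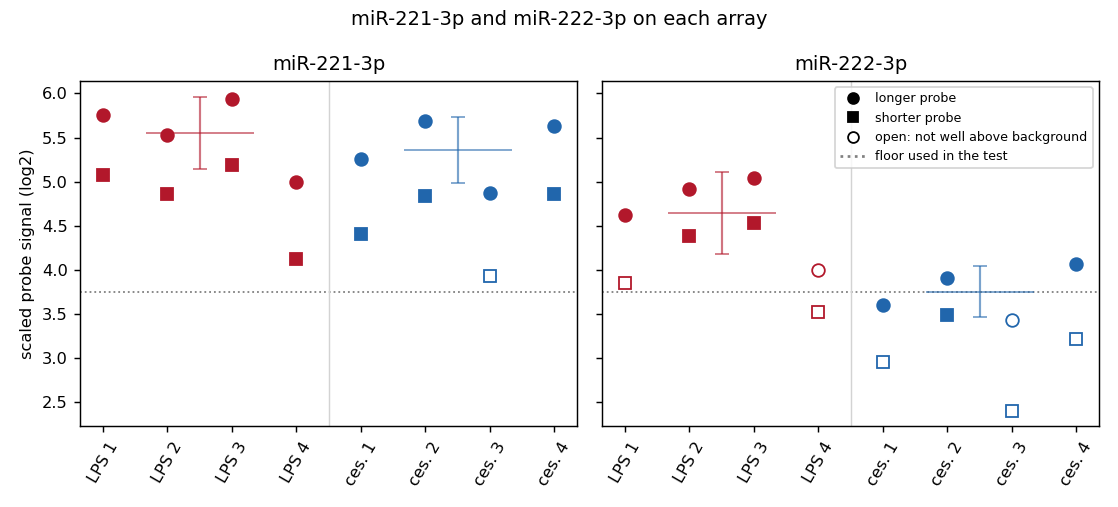
Scaled signal on the log2 scale (y axis) of miR-221-3p (left panel) and miR-222-3p (right panel) on the 4 LPS arrays (red) and the 4 cesarean arrays (blue), with circles for the longer and squares for the shorter probe, open symbols where the probe was not well above background, and the mean ± SD of the longer probe without the floor (dotted line at 3.75). The miR-222-3p circles of LPS replicates 1 to 3 lie between 4.62 and 5.05, above the cesarean circles at 3.43 to 4.07.

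The probes of each member were set side by side. For miR-221-3p the longer probe was brighter than the shorter on all 8 arrays, by 0.66 to 0.94 on the log2 scale, and the shorter gave a group difference of 0.30 ± 0.31 (SE; limma adjusted p = 0.58 over 887 probes). For miR-222-3p the longer probe was brighter by 0.42 to 1.02. The shorter miR-222-3p probe was well above background on 2 LPS arrays and 1 cesarean array, and so was not tested among the 887 probes. It lay below the floor on all 4 cesarean arrays and on 1 LPS array. Put in place of the longer probe in the fit over 470 miRNAs, it gave a group difference of 0.38 (limma adjusted p = 0.352). That setting was added after the values had been seen, and the floor left it no spread on the cesarean side. Without the floor the group difference was 1.06 for the shorter and 0.89 for the longer probe, the first resting on signals near background. Of the 3 member probes tested, 0 passed limma at an adjusted p of 0.05 (5.75% of the 887 probes passed) and 1 had an unadjusted p under 0.05. Both probes of an arm read the same RNA of the same sample, so they add nothing on the spread between samples.

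Because the hairpins are transcribed together, the levels of the 3p arms were set against each other within each array, which without a floor is a measure that a scaling factor per array does not alter. The log2 signal of miR-222-3p minus that of miR-221-3p was -1.13, -0.60, -0.90 and -1.0 on LPS replicates 1 to 4, against -1.64, -1.77, -1.44 and -1.56 on cesarean replicates 1 to 4. All 4 LPS arrays thus stood above all 4 cesarean arrays. With the floor, the groups did not overlap for 17.0% of the 470 tested miRNAs taken singly. How often the difference of other miRNA pairs separates the groups was not counted, so the separation cannot be called particular to this pair. The absolute size of this value has no meaning, as it sets a 14-base probe against a 20-base probe, and only its change between groups was compared.

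With the floor used in the main test, the means were -0.91 ± 0.23 in LPS samples and -1.49 ± 0.27 in cesarean samples (SD, n = 4 each), a difference of 0.58 (two-sided exact permutation test over 70 allocations, p = 0.0571). The floor acted on cesarean replicates 1 and 3, which it moved to -1.50 and -1.11, so that cesarean replicate 3 lay just above LPS replicate 1. Without the floor (a setting added after the values had been seen) the difference was 0.70 (exact p = 0.0286, the smallest that 4 against 4 arrays allow). With the shorter probes it was 0.07 with the floor (exact p = 0.83, groups overlapping) and 0.75 without it (exact p = 0.0286), the second value resting on signals near background. The authors' deposited table gave 0.69 with no overlap (exact p = 0.0286). The difference was 0.16 with normexp correction, whose added 50 units shrink the log2 differences of dim probes. It was -0.08 with a floor 2 times as high, which set miR-222-3p to the floor on all cesarean arrays and on LPS replicates 1 and 4. With the software's own total signal it was -0.20. It was 0.70 without cesarean replicate 3 (exact p = 0.0286), the highest cesarean array with the floor, so that leaving it out widens the difference by construction.

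**Figure D3:**
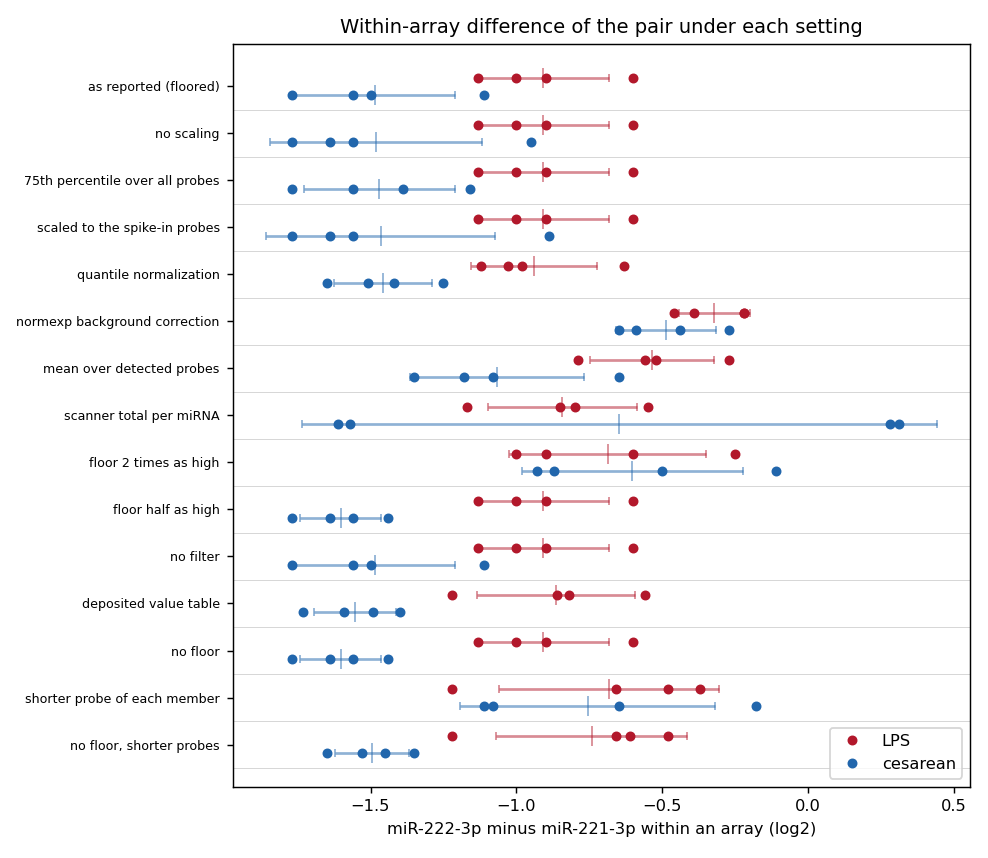
Within-array log2 difference of miR-222-3p minus miR-221-3p (x axis) on each LPS array (red, upper) and cesarean array (blue, lower), with mean ± SD, as reported and under each alternative setting that uses all arrays (y axis). The groups are separate in 6 of the 15 settings and overlap in 9, among them the reported values, where cesarean replicate 3 lies at -1.11.

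Across arrays, the 3p arms varied together within each group. Cesarean replicate 3 was the lowest cesarean array for both, and LPS replicate 3 was the highest and LPS replicate 4 the lowest LPS array for both. Over all 8 arrays their log2 levels correlated with Pearson's r = 0.732 without a floor and 0.676 with it. The value with the floor lay below the 0.893 or more of the miRNAs most like each arm, given next and also floored. The correlation is a description over samples that share scaling, slide and group, and it carries no test.

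The miRNAs with the most similar pattern differed between the arms. Among 335 other miRNAs well above background on all 8 arrays, those closest to miR-221-3p over the 8 arrays were miR-140-3p (Pearson's r = 0.966), miR-16-5p (0.951), miR-652-3p (0.936), miR-27a-3p (0.928) and miR-500-3p (0.908). Their group differences ran from -0.01 for miR-27a-3p to 0.40 for miR-500-3p, and 0 of the 5 passed limma (4.89% of all tested miRNAs passed). Those closest to miR-222-3p were miR-98-5p (0.918), miR-155-5p (0.903), miR-26a-5p (0.900), let-7a-5p (0.894) and let-7i-5p (0.893), 3 of which belong to the let-7 family. The group differences of these 5 were positive, from 0.58 for miR-98-5p to 1.09 for miR-155-5p, the inflammation-induced miRNA and the only one of the 5 to pass (adjusted p = 0.0329). The miRNAs compared share arrays, scaling and floor, and the likeness is a description with no test. Each set of 5 was picked by likeness to its arm over these same arrays. Group differences that resemble those of the arm therefore follow in part from the choice.

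Other miRNAs of the vessel wall, where the pair is best known, showed no common direction. Of 18 listed vascular and angiogenic miRNAs, 17 were on the array and 15 were tested, 9 of them with a positive difference, 1 rose, 0 fell and 14 did not pass (4.89% of all tested miRNAs passed), with a median log2 difference of 0.23 against -0.06 over all tested miRNAs. The one that rose was miR-322-5p (known as miR-424 in humans), at 10.42 ± 0.60 in LPS samples and 8.59 ± 0.46 in cesarean samples (SD, n = 4 each; limma adjusted p = 0.0266). let-7f-5p differed by 1.12 ± 0.34, the hypoxia-induced miR-210-3p by 0.81 ± 0.27, the smooth muscle miRNA miR-145a-5p by 0.71 ± 0.29 and the growth-linked miR-17-5p by -0.72 ± 0.33 (SE), with limma adjusted p from 0.0746 to 0.205. The endothelial miRNA miR-126a-3p differed by -0.09 ± 0.30 (SE; limma adjusted p = 0.895).

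The list of miRNAs tied to LPS and NF-κB, a pathway that also engages miR-222 in mouse macrophages, held 1 member that rose and 1 that fell. Of the 10 listed, 8 were tested and 6 did not pass, where 4.89% of all tested miRNAs passed, with a median log2 difference of 0.12. miR-155-5p rose 2.13-fold and miR-181b-5p, which restrains NF-κB signalling in endothelium, fell by 1.63 on the log2 scale (adjusted p = 0.0107). miR-146a-5p, a brake on NF-κB signalling, differed by 0.79 ± 0.26 (SE), close to the 0.78 of miR-222-3p, and likewise did not pass (adjusted p = 0.0903). let-7i-5p differed by 0.87 ± 0.25, miR-125b-5p by -0.95 ± 0.29 and miR-146b-5p by -1.46 ± 0.42 (SE), each with an adjusted p from 0.0692 to 0.0769.

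Markers of cells that could shed these exosomes were set beside the pair, with the same 4.89% of all tested miRNAs called (2.55% higher) as background. Of 4 erythroid markers 3 were tested and had positive differences. miR-144-3p passed, but it entered the test through the LPS arrays alone and stood at the floor in all cesarean samples, so that the test had no spread on that side. The summed scaled signal of the 4 ran from 14100 to 31000 in LPS samples and from 8670 to 15700 in cesarean samples. Of the 5 epithelial markers (the miR-200 family) 3 rose and the other two had positive differences that did not pass, with sums from 1440 to 2240 in LPS samples and 723 to 981 in cesarean samples. Of 5 leukocyte markers 3 were tested and 1 rose, miR-142a-3p, which averaged 4.06 in cesarean samples, near the floor of 3.75. The other tested leukocyte markers, miR-223-3p and miR-342-3p, differed by 0.09 and -0.45 and did not pass. The sums of the 5 ran from 629 to 939 in LPS samples and from 698 to 889 in cesarean samples. Neither the 1 tested endothelial marker (sums of the 2 listed from 252 to 371 with LPS and 235 to 540 at cesarean section) nor the 2 smooth muscle markers (130 to 246 with LPS and 78.2 to 163 at cesarean section) passed. No listed marker was below background on all 8 arrays, and the part of these cell types in the miR-222-3p difference was not tested.

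**Figure D4:**
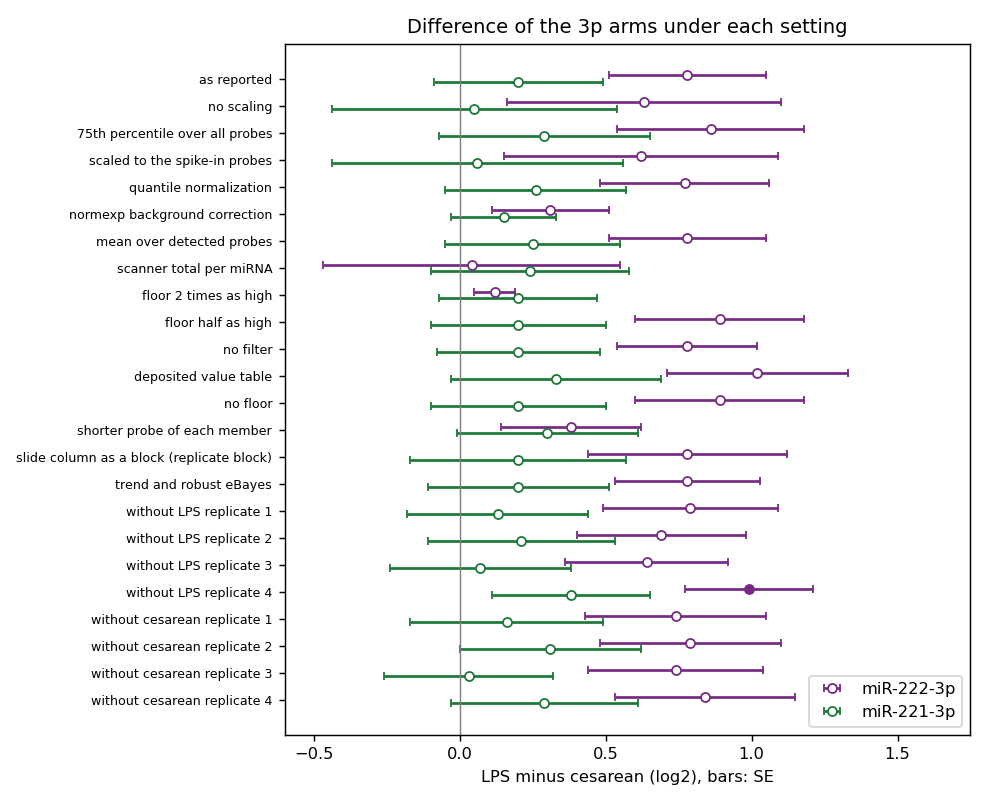
Log2 difference LPS minus cesarean (x axis, bars are the SE) of miR-222-3p (purple) and miR-221-3p (green) as reported and under each alternative processing or left-out array (y axis), with filled points where the limma adjusted p is under 0.05. miR-222-3p lies between 0.04 and 1.02 and is filled once, without LPS replicate 4, while miR-221-3p lies between 0.03 and 0.38.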

How the data were processed

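Exosomes from mouse amniotic fluid were isolated by size exclusion and their RNA was labelled with Cy3, per the labels' protocols, which name a cRNA amplification kit. Spot intensity was background-subtracted by Agilent Feature Extraction (version 9.1 per the submitters' processing notes, 10.7.1.1 per the file headers). The authors' deposited table holds log2 values per miRNA with column medians of 2.13 to 2.14, with its scaling and summary not stated. Over 336 miRNAs each of its 8 columns correlated best with its own array (r from 0.958 to 0.964).

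From the processed signal of 56430 miRNA spots per array, outlier-marked spots were left out (2.99% to 3.48%) and the rest averaged per probe. Arrays were scaled to the 75th percentile of 618 probes detected on all arrays, floored at 13.5 and put on the log2 scale. The brightest probe stood for a miRNA, and 470 miRNAs detected on at least 3 of 4 arrays of a group were tested with limma 3.58.1 (R 4.3.3). The fit was checked on simulated data with differences much larger than those of the members and no floor. That check does not cover differences as small as theirs. The likeness ranking took the 5 highest Pearson correlations, and list members were named where they passed or were among the 4 others of smallest p. Replicate numbers follow accession order, and p-values reflect the spread of these samples alone, which may be technical. The members and lists were chosen with earlier results of these data known. The number of arrays limits the precision.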

Additional observations from a re-analysis of the deposited data

How the results depend on the processing

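miR-221-3p did not pass under any of 24 alternatives and stayed between 0.03 and 0.38. miR-222-3p kept a positive difference under all 23 of its alternatives and passed in 1, at 0.99 without LPS replicate 4 (range 0.64 to 0.99 with each array left out, 0.04 to 1.02 otherwise). The pair difference, 0.58 as reported, ran from 0.48 to 0.70 with each array left out. It passed the exact test at 0.56 with the percentile over all probes, 0.52 with quantile normalization, 0.70 with a floor 0.5 times as high or none, 0.75 with the shorter probes and no floor, 0.69 in the deposited table and 0.70 without cesarean replicate 3. It did not pass at 0.58 without scaling (exact p = 0.0857), 0.56 with spike-in scaling (0.114), 0.16 with normexp (0.143), 0.53 with the mean over probes (0.0571), 0.58 without a filter (0.0571) or 0.07 with the shorter probes and the floor (0.83). The filter does not alter a difference within an array, so the value without it repeats the reported one. The pair difference reversed to -0.20 with the scanner total and to -0.08 with a floor 2 times as high. Counts of all called miRNAs moved more: 23 became 1 without scaling or with spike-in scaling, 13 with the percentile over all probes, 36 with quantile normalization, 9 with normexp, 5 with the scanner total, 15 when detected on all 8 arrays, 2 without a filter, and 3 to 79 with each array left out (79 without LPS replicate 1). For probes, 51 became 1 without scaling or with spike-in scaling, 23 with the percentile over all probes, 16 with normexp, 3 without a filter, and 0 to 147 with each array left out (147 without LPS replicate 1). Arrays of one slide column, which carry the same replicate number, correlated between -0.49 and -0.19 in their deviations, so they were not alike. With 1 pair of arrays per column, an effect of slide position cannot be judged. With the slide column as a block 1 miRNA and 1 probe were called, and miR-222-3p had an adjusted p of 0.282 by limma. The pair difference was then 0.58 (exact p = 0.125). That is the smallest p the blocked exact test can give, so it could not pass. The signal of miR-222-3p, near background on LPS replicate 4 and cesarean replicate 3, limits its values, as does the scanner total on cesarean replicates 3 and 4, with which its difference was 0.04.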

Other observations

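The scanner software's own total per miRNA treated miR-222-3p unlike the spots it came from on some arrays. For miR-221-3p the total equalled the sum of its 2 probe totals on all 8 arrays, within a tolerance of 1%. For miR-222-3p it equalled that sum on the LPS arrays and on cesarean replicates 1 and 2, but was 12.3 against a sum of 3.57 (3.44 times) on cesarean replicate 3 and 22.1 against 6.04 (3.66 times) on cesarean replicate 4. Between 96 and 146 miRNAs per array had a total over 1.5 times the sum of their probes. The values of miR-222-3p that use this total rest on those arrays, where the spots read 8.22 and 13.5 units, among the lowest of the 8 arrays.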
